A study of Mus musculus with 25 samples.

Results

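In cardiac myocytes that overexpress CHF1/Hey2, transcripts of cholesterol synthesis and of several matrix proteoglycans were lower with serum than without it. Those of several growth factors and protease regulators and of the cyclooxygenase gene Ptgs2 were higher. The proteoglycans, growth factors and protease regulators were put together after their values were seen. The comparison took the 7 arrays of transgenic (TG) myocytes grown with serum and the 6 arrays of TG myocytes grown without it, out of 25 arrays in all. The members were chosen by the source names in the labels. TG mice carried a CHF1/Hey2 transgene driven in the myocardium by the mlc2v promoter, and wild type (WT) mice did not. Myocytes were isolated from neonatal hearts of either genotype and kept in serum-free medium. The treated cultures received 20% fetal bovine serum for 24 h, and RNA of 1 culture was hybridised to each Affymetrix Mouse Gene ST array. The 7 WT arrays with serum and 5 WT arrays without it served for the test of whether the serum difference depended on the genotype. The study counts the cultures as independent. Nothing says that they came from separate litters, so p-values measure the spread between these cultures.

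CHF1/Hey2 is a Hairy-related basic helix-loop-helix transcriptional repressor that may act downstream of Notch. It is known in the heart for chamber patterning and for restraining hypertrophy. Serum is a mixture of growth factors, lipoproteins, lipids and hormones, and cultured neonatal myocytes respond to it with hypertrophy. Cells given serum can take up lipoprotein cholesterol. Cells kept without it depend on their own synthesis, which is governed by the transcription factor SREBP2 and its retention protein INSIG1. Serum also activates receptor tyrosine kinases, thrombin receptors and TGF-beta receptors, whose transcriptional programmes include ligands, protease inhibitors and feedback inhibitors.

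The serum difference had to be separated from a difference in scale. The authors deposited normalized log2 intensities for 35557 probe sets. The median per array was 5.21 to 5.33 in TG arrays with serum and 4.99 to 5.04 in TG arrays without it, the SD over probe sets was 2.54 to 2.60 and 2.12 to 2.14, and the lowest value was 1.05 to 1.21 and 2.55 to 2.66. All 25 arrays were therefore brought to 1 distribution by joint quantile normalization, and values below are log2 intensities on that common scale. Correlations across probe sets then stood at 0.963 to 0.972 between TG arrays with and without serum. Within a TG group the deposited values correlated at 0.986 to 0.996. In limma, 21828 probe sets (61.4%) had an adjusted p under 0.05 for serum in TG myocytes. By gene, 31.8% passed it with higher and 30.9% with lower values in serum. With so many, p alone was not used to name genes. A probe set was called where the adjusted p was under 0.05 and its difference lay at least 3 scaled median absolute deviations (MADs) from the running median of the probe sets of nearest mean level. The running median stayed between -0.04 and 0.06 and the scaled MAD between 0.17 and 0.63 (log2). An effect of serum on all transcripts, and any effect of processing the 2 sets of arrays apart, cannot be told apart from serum here.

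By this rule 590 of 35557 probe sets (1.66%) were called in TG myocytes, 236 of them higher (0.664%) and 354 lower (0.996%) with serum. The higher ones made up 40.0% of the calls, against 28.3% on the deposited scale and 27.1% after the median of every array was set equal. Probe sets that carry no gene name here were called in 3.19%, those with 1 gene in 0.886% and those with several genes in 0.617%. With the brightest probe set kept for each of 19938 genes, 87 genes (0.436%) rose and 80 (0.401%) fell, 167 in all (0.838%). In 152 of these (0.762% of all genes) the TG arrays with and without serum did not overlap, whereas the groups did not overlap in 12517 of all probe sets (35.2%). The members nearest the threshold were Mir320, Rprl1 and Mybl2 just inside it at -3.01, -3.02 and -3.03 scaled MADs. Tmem202, 2700062C07Rik and Flt1 lay just outside it at 2.99, 2.99 and 2.98.

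**Figure D1:**
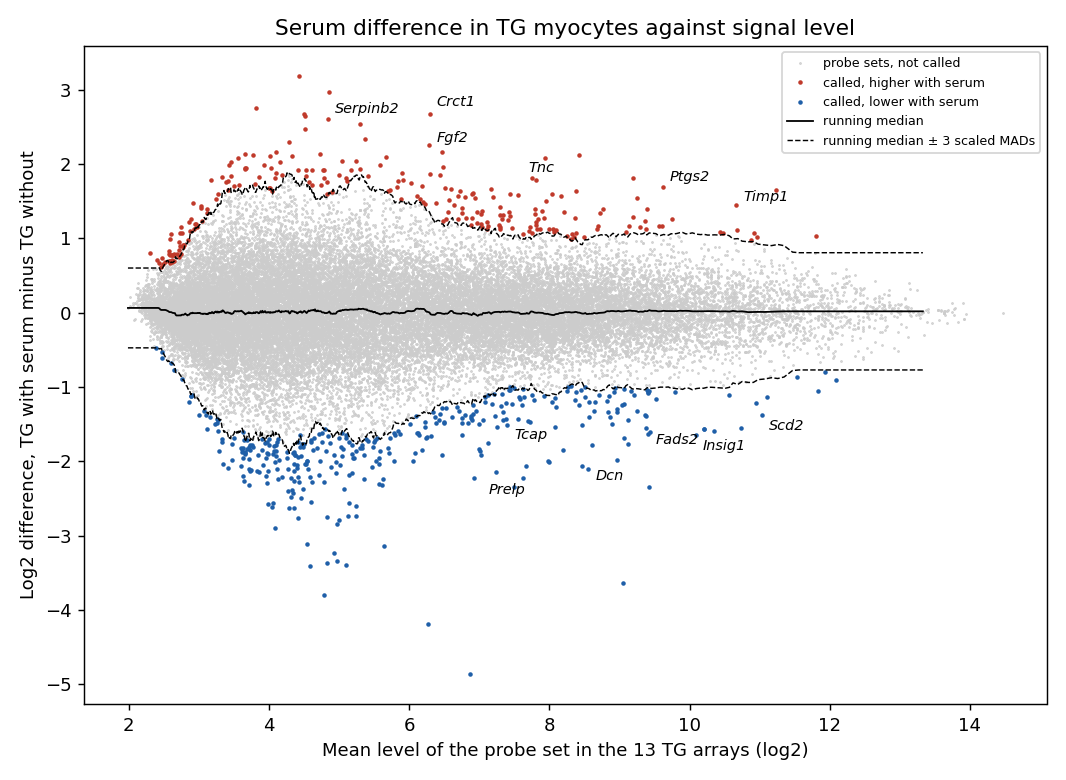
Each point is 1 of 35557 probe sets, with its mean level in the 13 TG arrays (log2, horizontal axis) and its log2 difference, TG with serum minus TG without (vertical axis). The solid line is the running median and the dashed lines lie 3 scaled MADs from it. The band is narrower for the dimmest and the brightest probe sets than near the median level, and Timp1, Ptgs2, Insig1 and Scd2 lie outside it at high signal.

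Hey2, the gene that the transgene carries, was higher in each TG array than in any WT array. It had log2 values of 8.03, 8.81, 8.26, 7.31, 7.29 and 8.60 in TG myocytes without serum and 8.23, 8.61, 8.85, 9.13, 7.95, 7.74 and 8.93 with serum. The 12 WT arrays lay between 6.31 and 7.14, below all 13 TG arrays. Within TG myocytes the groups overlapped, and the serum difference of 0.44 (SE 0.23, limma adjusted p = 0.104) was not called. Its 95% interval ran from -0.04 to 0.92. Cultures 4 and 5 without serum and cultures 5 and 6 with serum had the lowest Hey2. Myl2, the ventricular regulatory light chain whose promoter drives the transgene, was lowest in the same cultures. It had values of 12.93, 13.12, 13.10, 12.54, 12.02 and 12.92 without serum and 12.16, 12.50, 12.54, 12.72, 11.95, 11.70 and 12.49 with it, and its difference of -0.47 (SE 0.20, adjusted p = 0.0427) was not called.

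Cultures 4 and 5 without serum and culture 6 with serum also held less of other myocyte transcripts. Myh6, the alpha myosin heavy chain, had 10.50 and 9.99 in cultures 4 and 5 without serum, against 12.03 to 12.36 in the other 4, and 10.82 in culture 6 with serum, against 11.75 to 12.40 in the other 6. The mean log2 level of 15 cardiac myocyte markers ran from 10.76 to 12.12 without serum (median 11.94) and from 10.88 to 12 with serum (median 11.91), so the groups overlapped and the spread lay within them. The study reports these preparations as nearly pure by sarcomeric myosin staining. In such bulk RNA, fewer myocytes and less myocyte RNA per cell cannot be told apart. With cultures 4 and 5 without serum and culture 6 with serum left out, and culture 5 with serum kept, 635 probe sets were called. Of these 514 were among the 590.

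Genes of cholesterol synthesis had the lowest median of the 37 gene lists. Of 20 measured members 9 fell and 0 rose, where 0.401% of all genes fell. The list's median log2 difference was -0.90, against 0.0048 over all 19938 genes, and the difference was negative in all 20 members. In 18 of the 20 the TG arrays with and without serum did not overlap, with the groups apart in that direction in 18.9% of all genes. The exceptions were Ebp and Tm7sf2.

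The 9 genes span the pathway from its first steps to its last. Hmgcs1, which makes HMG-CoA at the entry to the mevalonate pathway, had 10.32, 10.58, 10.29, 10.07, 10.32 and 10.35 without serum and 9.24, 9.14, 9.22, 9.29, 9.36, 9.29 and 9.29 with serum. It fell by 1.06 (SE 0.07, limma adjusted p = 1.51e-12). Idi1, the isopentenyl diphosphate isomerase, had 9.94, 10.08, 9.97, 9.73, 9.81 and 9.94 without serum and 8.41, 8.02, 8.03, 8.04, 8.4, 8.64 and 7.97 with it, the largest fall of the list at 1.69 (SE 0.11, adjusted p = 3.38e-12), or 3.24-fold. Every array with serum lay below every array without it in both genes. Fdps, the farnesyl diphosphate synthase, fell by 1.34 and Fdft1, the squalene synthase, by 1.39. Sqle, the squalene epoxidase, fell by 1.12. Fdft1 had 10.02, 10.12, 10.17, 9.96, 10.15 and 10.03 without serum and 8.89, 8.32, 8.62, 8.42, 8.94, 9.06 and 8.55 with it, so cultures 1, 5 and 6 with serum were the highest of their group. Among the enzymes that turn lanosterol into cholesterol, Cyp51, the lanosterol demethylase, fell by 1.25, Msmo1, a methyl sterol oxidase, by 1.11, and Dhcr7, the reductase of the final step, by 1.16.

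Insig1, the protein that holds SREBP2 in the endoplasmic reticulum and is itself an SREBP target, had 10.90, 11.11, 10.89, 10.69, 10.98 and 10.95 without serum. With serum it had 9.20, 9.12, 9.07, 9.11, 9.40, 9.72 and 9.28, a fall of 1.65 (SE 0.10, adjusted p = 6.48e-13). In rank within the array, it went from the 97.5th to the 91.5th percentile. Srebf2, which encodes SREBP2, had 9.16, 9.11, 9.11, 8.97, 9.18 and 9.21 without serum and 8.53, 8.52, 8.55, 8.57, 8.59, 8.56 and 8.49 with it. Its difference of -0.58 (SE 0.04) was small against genes of like level, at -1.78 scaled MADs, and was not called although the groups did not overlap. Of the members that were not called, Mvk had a log2 difference of -0.96, Lss and Nsdhl had -0.84 each, Sc5d -0.68, Stard4 -0.63, Tm7sf2 and Hsd17b7 -0.58 each, Pmvk -0.51, Mvd -0.49 and Ebp -0.26. In WT myocytes 7 of the 20 were called lower and the median was -0.93. The difference between TG and WT had a median of -0.05 over the list, and no member passed an unadjusted p of 0.05 for it. The largest size among the 20 was that of Idi1, -0.24 (95% interval -0.57 to 0.08).

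**Figure D2:**
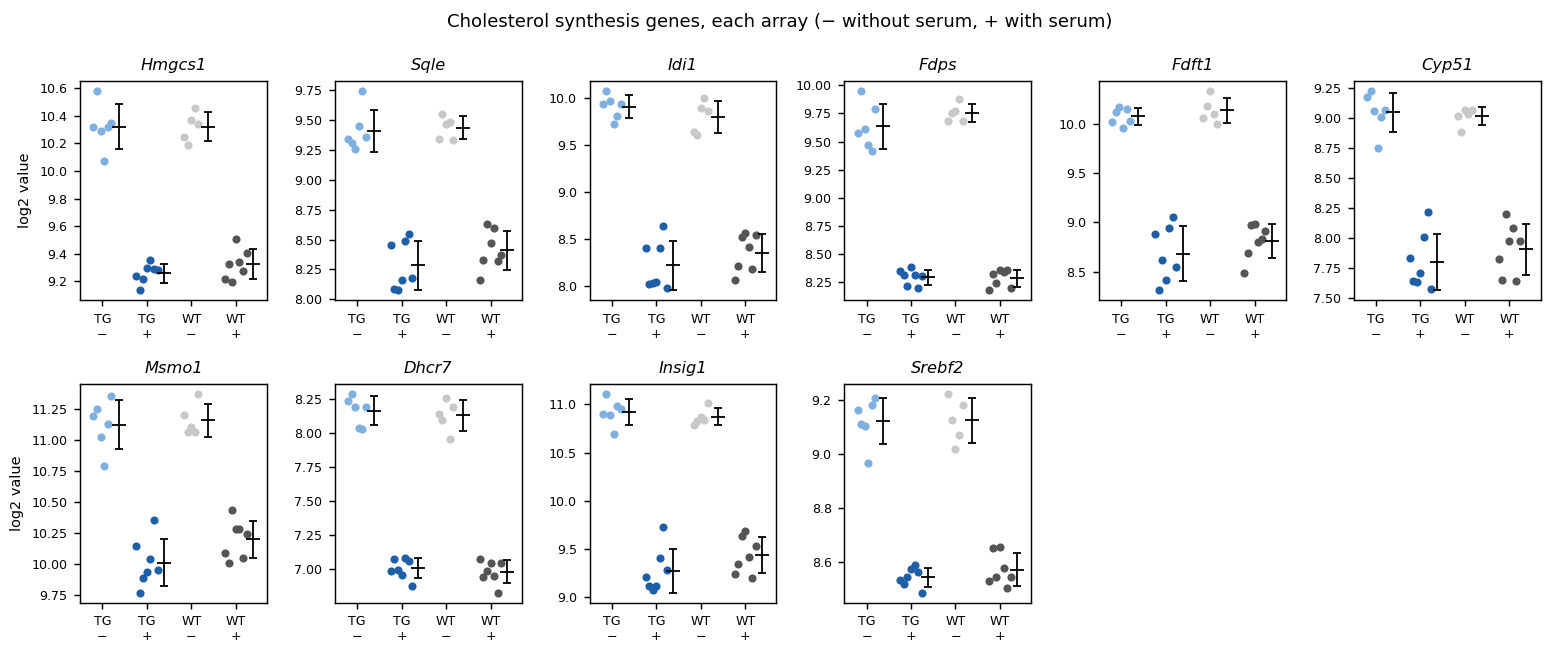
Log2 values of the 9 called cholesterol synthesis genes and of Srebf2 in each array (points) of TG and WT myocytes without (-) and with (+) serum, with the mean and SD of each group beside them. In each panel the TG arrays with serum lie below those without.

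The stretches before the starts of these genes are shown because the proteins known to work with SREBP2 at sterol promoters include NF-Y, which binds CCAAT boxes. They are from RefSeq annotation (GRCm38.p6), 5′ to 3′ on the strand of the gene, and capitals mark CCAAT or its reverse complement ATTGG. The windows searched ran from 250 bases before to 50 after each start, and 16 of the 20 list members and 6 of the 9 called genes matched an entry by symbol. The stretches printed lie wholly before the start. They belong to Hmgcs1 (chr13:119690231-119690350, plus strand), Idi1 (chr13:8885486-8885605, plus strand), Cyp51 (chr5:4104698-4104817, minus strand) and Dhcr7 (chr7:143830094-143830213, plus strand).
Hmgcs1: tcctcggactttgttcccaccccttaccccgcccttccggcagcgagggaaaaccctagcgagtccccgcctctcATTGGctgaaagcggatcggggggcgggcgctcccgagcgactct
Idi1: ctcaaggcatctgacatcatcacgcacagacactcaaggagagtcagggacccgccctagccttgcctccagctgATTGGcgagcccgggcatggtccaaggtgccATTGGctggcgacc
Cyp51: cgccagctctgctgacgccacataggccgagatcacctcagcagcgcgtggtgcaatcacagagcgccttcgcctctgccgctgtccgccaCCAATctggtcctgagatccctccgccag
Dhcr7: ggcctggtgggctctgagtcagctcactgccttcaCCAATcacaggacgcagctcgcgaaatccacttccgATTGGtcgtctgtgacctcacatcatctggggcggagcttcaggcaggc
CCAAT on either strand was found in the windows of all 16 list members with an entry, including the 6 called genes Hmgcs1, Idi1, Cyp51, Dhcr7, Msmo1 and Insig1. It stood in 37.4% of the 32851 windows of the table and in at least 1 window of 41.7% of the 15614 measured genes with an entry. The copy nearest to the start began 14 bases before it in Idi1, 29 in Cyp51, 45 in Hmgcs1 and 49 in Dhcr7. It began 55 bases before the start in Msmo1 and 216 in Insig1, whose stretches are not printed. For a gene with several starts, the stretch and distance are those of the window whose CCAAT lay nearest before its start. The sterol element core TCACNCCAC was found in 1 of the 16 genes, Hmgcs1, outside the stretch printed. It stood in 1.24% of windows and in 1.4% of the measured genes with an entry. TGANTCA was found in 2 of the 16, Dhcr7 (within the stretch printed) and Msmo1, in 7.81% of windows and in 8.08% of those genes. CACGTG was found in 4 of the 16, in 7.15% of windows and in 9.5% of those genes. Both strands were searched, and none of these motifs contains another. A gene with several starts had several windows. A match is a run of letters and not a measured site.

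Some lipid genes beside the sterol pathway were called as well. Of 22 genes of fatty acid synthesis and lipid storage 2 fell and 0 rose, where 0.401% of all genes fell. The list's median was -0.25 and 15 of 22 differences were negative. Fads2, the delta-6 desaturase of polyunsaturated fatty acids, had 10.21, 10.30, 10.03, 10.11, 10.24 and 10.45 without serum and 8.4, 8.56, 8.61, 8.54, 8.70, 8.91 and 8.44 with it, a fall of 1.63 (SE 0.13, adjusted p = 2.20e-10). Scd2, a stearoyl-CoA desaturase, fell by 1.38 (SE 0.19, adjusted p = 1.22e-06), from 11.06 to 12.39 without serum to 9.92 to 10.79 with it. Members that missed the threshold narrowly were Acly at -1.02 and -2.98 scaled MADs, Fads1 at -0.99 and -2.94, Srebf1 at -0.89 and -2.93, Scd1 at -0.95 and -2.87 and Fasn at -0.88 and -2.61. With the 3 TG cultures of lowest sarcomere transcripts left out, 6 of the 22 were called lower, and 11 of the 20 cholesterol genes. Outside the lists, Cyp39a1, an oxysterol hydroxylase, fell by 1.83 and Idh1, the cytosolic isocitrate dehydrogenase that supplies NADPH, by 1.05.

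Some genes of fatty acid oxidation and glycolysis were called, where 0.436% of all genes rose and 0.401% fell. Angptl4, a secreted inhibitor of lipoprotein lipase and a PPAR target, rose by 1.44 (SE 0.15, adjusted p = 1.16e-08), from 5.37 to 6.44 without serum to 6.90 to 7.81 with it, and was the 1 called gene of 26 in the fatty acid oxidation list, whose median was -0.19. Of 21 genes in the glycolysis list, Hk2, a hexokinase, rose by 1.16 (SE 0.31, limma adjusted p = 0.00212). Aldoc, a brain-type aldolase, fell by 1.37 (SE 0.13, adjusted p = 3.43e-09). The 21 include Pigq, which is not a glycolysis gene. Hk2 had 9.21, 10.03, 9.16, 8.02, 7.98 and 9.52 without serum and 10.06, 10.42, 10.47, 10.64, 9.92, 9.20 and 10.31 with it. The groups overlapped, with cultures 1, 2 and 6 without serum above culture 6 with it. With the 3 TG cultures of lowest sarcomere transcripts left out, its shift against genes of like level went from 1.14 to 0.82 and it was no longer called, as without culture 4 (0.96) or culture 5 (0.94) alone.

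Growth factor ligands were among the genes with the largest rises. These ligands were put together after their values were seen, and their number says nothing of ligands at large. Fgf2, the basic fibroblast growth factor, had 5.18, 5.16, 4.95, 5.08, 5.10 and 5.50 without serum and 7.42, 7.31, 7.18, 7.17, 7.55, 8.0 and 7.25 with it. It rose by 2.25 (SE 0.20, adjusted p = 1.28e-09), or 4.76-fold, and from the 49.8th to the 75.4th percentile of the array. Ereg, which encodes epiregulin, a ligand of the EGF receptor, had 6.58, 6.42, 6.44, 6.88, 7.38 and 7.36 without serum and 8.49, 8.59, 8.62, 8.44, 8.92, 8.99 and 8.52 with it, a rise of 1.81 (SE 0.28, adjusted p = 5.87e-06). Another EGF receptor ligand, Hbegf, rose by 1.11 (SE 0.18), and the platelet-derived growth factor gene Pdgfc by 1.27 (SE 0.18). Of the TGF-beta superfamily, Gdf6 rose by 1.55 (SE 0.15) and the activin subunit Inhba by 1.23 (SE 0.12). Tnfsf18 and Tnfsf15, ligands of the TNF family, rose by 1.66 (SE 0.34) and 1.57 (SE 0.08).

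Some genes of plasminogen activation and protease control were also called higher. They were put together after their values were seen, and members of these families that were not called were not counted. Plaur, the urokinase receptor, had 7.00, 6.76, 6.81, 7.31, 8.17 and 7.42 without serum and 8.81, 8.63, 8.67, 8.46, 9.12, 9.56 and 8.58 with it, a rise of 1.59 (SE 0.23, adjusted p = 2.78e-06). Serpinb2, the plasminogen activator inhibitor of type B, lay between 3.44 and 3.60 in the 6 arrays without serum. In the 7 with serum it had 6.63, 5.79, 5.77, 5.71, 6.37, 7.07 and 5.69, a rise of 2.61 (SE 0.22, adjusted p = 4.32e-10), from the 21.7th to the 61.7th percentile. Without serum it lay near the floor of the arrays, where log2 differences are compressed, so this rise is not an exact size. Timp1, the tissue inhibitor of metalloproteinases, had 9.55, 9.73, 9.48, 10.24, 10.36 and 10.24 without serum and 11.22, 11.36, 11.37, 11.28, 11.53, 11.65 and 11.27 with it, a rise of 1.45 (SE 0.15, adjusted p = 7.95e-09). Tll1, a tolloid-like metalloprotease that processes procollagens and BMP antagonists, rose by 2.08 (SE 0.26). Thbd, which encodes thrombomodulin, rose by 1.55 and the metalloprotease gene Adam19 by 1.05. Tfpi2, a Kunitz-type inhibitor, rose by 1.14, a call that was lost without culture 6 with serum, where its shift went from 1.13 to 0.94. Hbegf and Adam19 were not called with the 3 TG cultures of lowest sarcomere transcripts left out. Cultures 1, 5 and 6 were the 3 highest with serum for Serpinb2, and culture 5 was the highest without serum for Plaur and Timp1.

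Ptgs2, the inducible cyclooxygenase of prostaglandin synthesis, was the 1 called gene of 20 in the chemokine and inflammation list. Over all genes 0.436% rose. Ptgs2 had 8.22, 8.17, 8.24, 9.19, 9.55 and 9.25 without serum and 10.67, 10.19, 10.13, 9.95, 10.99, 11.25 and 10.06 with it, a rise of 1.69 (SE 0.28, adjusted p = 1.21e-05), or 3.23-fold. Of other genes around this step, Pla2g4a, the cytosolic phospholipase that releases arachidonic acid, rose by 1.27 (SE 0.23), and Slco2a1, a prostaglandin transporter, by 1.54 (SE 0.18). Mgll, a monoacylglycerol lipase, rose by 1.12 (SE 0.21) but was not called without culture 4 or culture 5 without serum, or with the 3 TG cultures of lowest sarcomere transcripts left out. These 3 companions of Ptgs2 were named after their values were seen. Of the cytokines in the list, Il6 had a log2 difference of 1.28, Lif of 0.75 and Cxcl1 of -1.08, and none was called. The list's median was 0.16, and 7 of its 20 members were dim (mean log2 under 5).

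**Figure D3:**
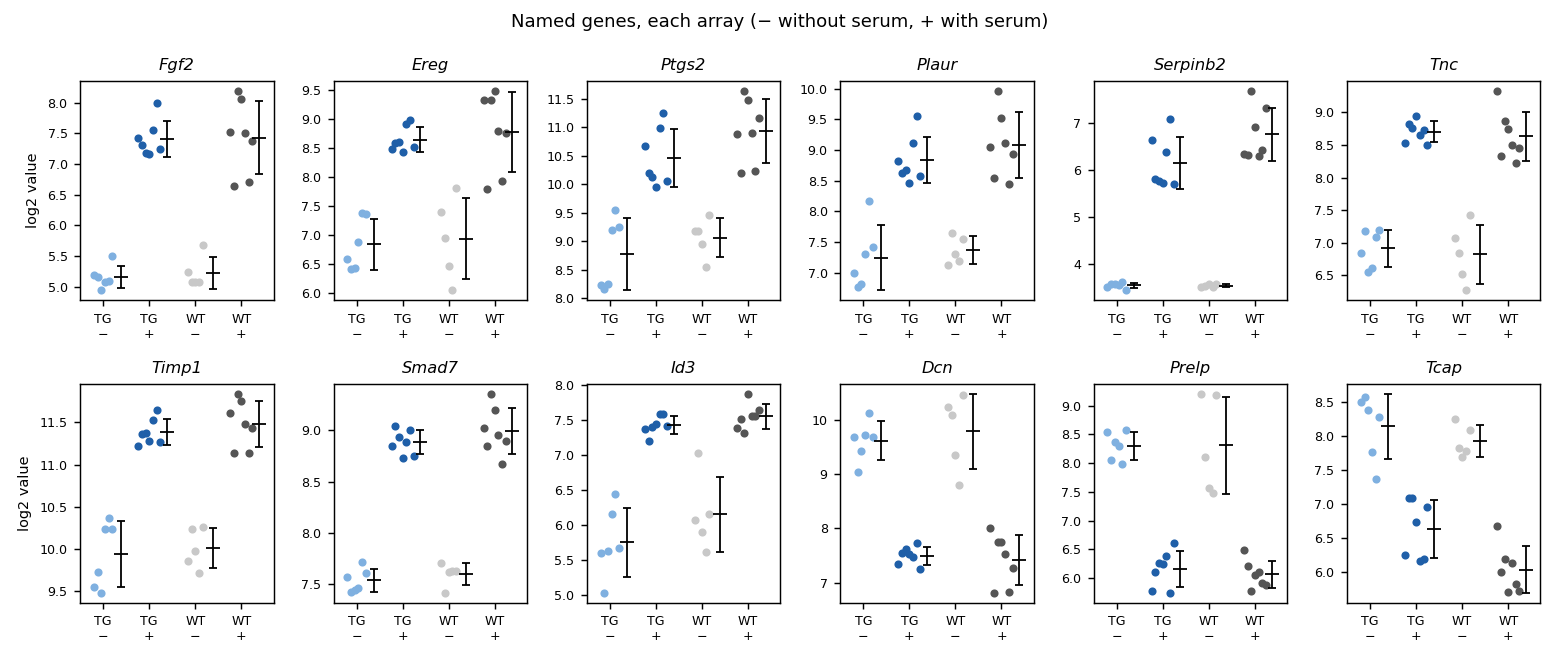
Log2 values of 12 named genes in each array (points) of TG and WT myocytes without (-) and with (+) serum, with the mean and SD of each group beside them. The TG groups do not overlap in any panel, and Serpinb2 lies near the floor without serum in both genotypes.

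Matrix genes moved in both directions. Of 27 genes of extracellular matrix and TGF-beta response, 3 rose and 1 fell, where 0.436% of all genes rose and 0.401% fell. The list's median was 0.0058. Tnc, the matricellular protein tenascin C of injured and developing myocardium, had 6.84, 7.19, 6.56, 6.61, 7.10 and 7.20 without serum and 8.54, 8.81, 8.75, 8.94, 8.65, 8.74 and 8.50 with it, a rise of 1.79 (SE 0.17, adjusted p = 3.78e-09). Timp1 was the second gene that rose. Smad7, the inhibitory Smad that TGF-beta signalling induces, was the third, with 7.57, 7.43, 7.44, 7.47, 7.72 and 7.61 without serum and 8.85, 9.04, 8.93, 8.73, 8.88, 9.01 and 8.76 with it (a rise of 1.35, SE 0.09, adjusted p = 2.54e-12). Col3a1, the chain of type III collagen, had 10.19, 9.83, 9.95, 9.63, 10.02 and 10.06 without serum and 8.52, 8.85, 8.92, 8.93, 8.94, 9.06 and 8.91 with it, a fall of 1.07 (SE 0.18, adjusted p = 1.19e-05). The type I collagen genes Col1a1 and Col1a2 had differences of -0.02 and -0.05. Fn1 had -0.36, Postn -0.45 and Lox 0.11, and none of these was called.

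Small leucine-rich proteoglycans, which coat collagen fibrils and bind TGF-beta, were among the genes with the largest falls. Those given here were put together after their values were seen, and other members of the family were not counted. Dcn, which encodes decorin, had 9.68, 9.04, 9.43, 9.72, 10.12 and 9.68 without serum and 7.34, 7.55, 7.62, 7.53, 7.47, 7.74 and 7.26 with it. It fell by 2.11 (SE 0.23, adjusted p = 2.74e-08), or 4.32-fold, from percentile 93.1 to percentile 76.4 of the array. Prelp had 8.53, 8.05, 8.37, 8.31, 7.99 and 8.58 without serum and 5.77, 6.10, 6.26, 6.25, 6.38, 5.75 and 6.61 with it, a fall of 2.15 (SE 0.23, adjusted p = 2.53e-08). Fmod, which encodes fibromodulin, fell by 2.24 (SE 0.19), to values of 4.11 to 4.70 with serum. These are dim (log2 under 5), so this fall is not an exact size. Lum, which encodes lumican, had a difference of -1.17 at -2.23 scaled MADs and was not called. Mfap4, a microfibril-associated protein, fell by 1.76 (SE 0.16), Col8a2 by 1.85 (SE 0.09), Col14a1 by 1.15 (SE 0.29), Spon2 by 1.32 (SE 0.12) and Ccn5 by 1.14 (SE 0.23). Hmcn1, which encodes hemicentin, fell by 1.42 (SE 0.13) at its brightest probe set, but only 4 of its 77 probe sets were called. The 77 ran from -1.69 to 0.25, with a median of -0.67. Sfrp2, a modulator of Wnt signalling, fell by 1.12 (SE 0.23) with overlapping groups. It was not called with ranks in place of values, without any 1 of cultures 4, 5 and 6 without serum or 2, 3, 4 and 7 with it, or with the 3 TG cultures of lowest sarcomere transcripts left out.

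Several genes of cell adhesion were called higher, chosen because they were. Thbs1, the thrombospondin that activates latent TGF-beta, rose by 1.03 (SE 0.17) at a high level of 12.14 to 12.58 with serum and 11.01 to 11.83 without. Sdc4, a heparan sulfate syndecan, rose by 1.40 (SE 0.09) and Itga6, an integrin chain of laminin receptors, by 1.16 (SE 0.12). Col15a1 rose by 1.34 (SE 0.18) and Lrrc32, which presents latent TGF-beta at the cell surface, by 1.36 (SE 0.25). Npnt, an integrin ligand, rose by 1.32 (SE 0.25) with overlapping groups. The matrix and adhesion genes that are in no list were named after their values were seen.

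Of 20 Hey, Hes, Id and Notch genes 2 rose and 0 fell, where 0.436% of all genes rose. The list's median was -0.06. Hes1, a Notch target and a repressor of the same family as Hey2, had 8.65, 8.41, 8.82, 8.54, 8.39 and 8.48 without serum and 9.69, 9.65, 9.63, 9.50, 9.63, 9.56 and 9.71 with it. It rose by 1.08 (SE 0.06, adjusted p = 8.26e-13). It was near the threshold at 3.06 scaled MADs and was not called when culture 2, 5 or 6 without serum was left out. Id3, an inhibitor of basic helix-loop-helix factors and a target of BMP signalling, had 5.60, 5.04, 5.63, 6.16, 6.45 and 5.68 without serum and 7.37, 7.21, 7.40, 7.44, 7.59, 7.58 and 7.42 with it, a rise of 1.67 (SE 0.19, adjusted p = 4.57e-08). Hey1 had a difference of 0.35 and Heyl of -0.55, both at a low level, and neither was called. Notch3, a receptor of mural cells, had -1.0 at -2.74 scaled MADs.

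The markers of hypertrophy did not pass. Of 15 measured hypertrophy markers 0 were called in TG myocytes and 0 in WT myocytes, and the TG groups overlapped in all 15. Their median was -0.06 in TG and -0.0026 in WT myocytes. No member had an unadjusted limma p under 0.05 for TG minus WT. Nppa, the atrial natriuretic peptide, had 13.12, 13.25, 13.18, 12.68, 12.49 and 13.20 in TG myocytes without serum and 13.26, 13.46, 13.55, 13.55, 13.14, 12.70 and 13.50 with it (difference 0.32, 95% interval 0.01 to 0.63, adjusted p = 0.0708). Nppb, the brain natriuretic peptide, differed by 0.17 (-0.50 to 0.83, adjusted p = 0.676), Acta1, the skeletal actin, by 0.16 (-0.33 to 0.65, adjusted p = 0.585) and Myh6 by 0.45 (-0.36 to 1.25, adjusted p = 0.331). Myh7, the beta myosin heavy chain, had 11.53, 11.86, 11.64, 10.20, 9.69 and 11.53 without serum and 10.19, 10.65, 10.75, 10.80, 10.05, 9.42 and 10.73 with it. Its difference of -0.71 (-1.40 to -0.01, adjusted p = 0.0715) was not called over all 13 TG arrays. With cultures 4 and 5 without serum and culture 6 with serum left out, the shift of Myh7 against genes of like level was -1.12 (adjusted p = 0.00141) and it was called lower, that of Nppb turned from 0.15 to -0.26 and that of Myh6 from 0.43 to -0.02, neither of them called.

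Sarcomere genes had 1 call among 21, where 0.838% of all genes were called. Tcap, which encodes telethonin, the titin cap of the Z-disc, had 8.51, 8.58, 8.39, 7.76, 7.37 and 8.28 without serum and 6.26, 7.09, 7.09, 6.73, 6.16, 6.19 and 6.96 with it. It fell by 1.51 (SE 0.20, adjusted p = 8.15e-07), or 2.84-fold, and the groups did not overlap although the low cultures were among the lowest in each. The median of the list was -0.08, and the differences were negative in 13 of 21. Actc1, the cardiac actin, had 0.05 and Tnni3, the cardiac troponin I, -0.33. Casq1, a calsequestrin of the sarcoplasmic reticulum, fell by 1.09 (SE 0.34, adjusted p = 0.0073) with overlapping groups, and was not called on the deposited scale or without culture 2 or 6 without serum or culture 5 or 6 with it, where its shift went from -1.11 to between -1.03 and -0.92. Of 19 calcium handling genes 0 were called at the brightest probe set of each, with a median of 0.09. The largest difference among those brightest probe sets was that of Jph2, which couples the T-tubule to the sarcoplasmic reticulum, at 0.95 (adjusted p = 0.00339, 2.68 scaled MADs). Trdn, which encodes triadin of the junctional sarcoplasmic reticulum, had 0.08 at its brightest probe set, but its 19 probe sets ran from -0.27 to 1.92. Of these 2 were called higher, at 1.92 and 1.81, both at a low level.

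The markers of other cells the cultures could hold moved in different directions. Of 10 fibroblast markers 2 fell, Dcn and Col3a1, where 0.401% of all genes fell. The differences were negative in 8 of 10 and the median was -0.44. The mean log2 level of the list was 8.75 to 9.28 without serum and 8.35 to 8.88 with it. Lum had -1.17, Col1a1 -0.02 and Pdgfra, the highest of the list, 0.68, and none of these was called. Of 7 smooth muscle markers 0 were called, with means of 8.21 to 8.87 and 8.43 to 8.80. Of 15 endothelial markers 2 rose, where 0.436% of all genes rose, with means of 5.12 to 5.63 and 5.31 to 6.15. They were Plvap at 1.77 (SE 0.11), which lay under 5 in all arrays without serum and was not called on the deposited scale, and Emcn at 1.65 (SE 0.35) with overlapping groups. Red cell markers had 2 measured members and 0 calls.

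Upk1b, a uroplakin of mesothelium and epicardium, was the 1 called of 13 epicardial markers, where 0.436% of all genes rose. It had the largest standardized shift of those lists. It had 7.11, 6.12, 7.00, 8.49, 8.38 and 7.08 without serum and 10.19, 9.11, 8.97, 8.23, 10.39, 10.43 and 9.06 with it, a rise of 2.12 (SE 0.38, adjusted p = 3.43e-05). The groups overlapped through cultures 4 and 5 without serum and culture 4 with it. The epicardial list ran from 6.66 to 7.08 without serum and from 7.03 to 7.43 with it. Its median was 0.30 and 11 of 13 differences were positive. Wt1, its defining transcription factor, was the lowest at -0.41. C1qc, a complement chain of macrophages, had 5.64, 5.86, 5.35, 4.55, 4.48 and 6.08 without serum and 7.40, 7.19, 7.27, 7.03, 6.87, 6.56 and 6.91 with it. It rose by 1.71 (SE 0.29, adjusted p = 1.67e-05) and was the 1 called of 13 macrophage markers. That list had a median of 0.56, with 12 of 13 differences positive, and ran from 5.19 to 6.53 without serum and from 5.99 to 6.84 with it. The part of other cells in the falls of proteoglycans and the rises of ligands and proteases was not tested.

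**Figure D4:**
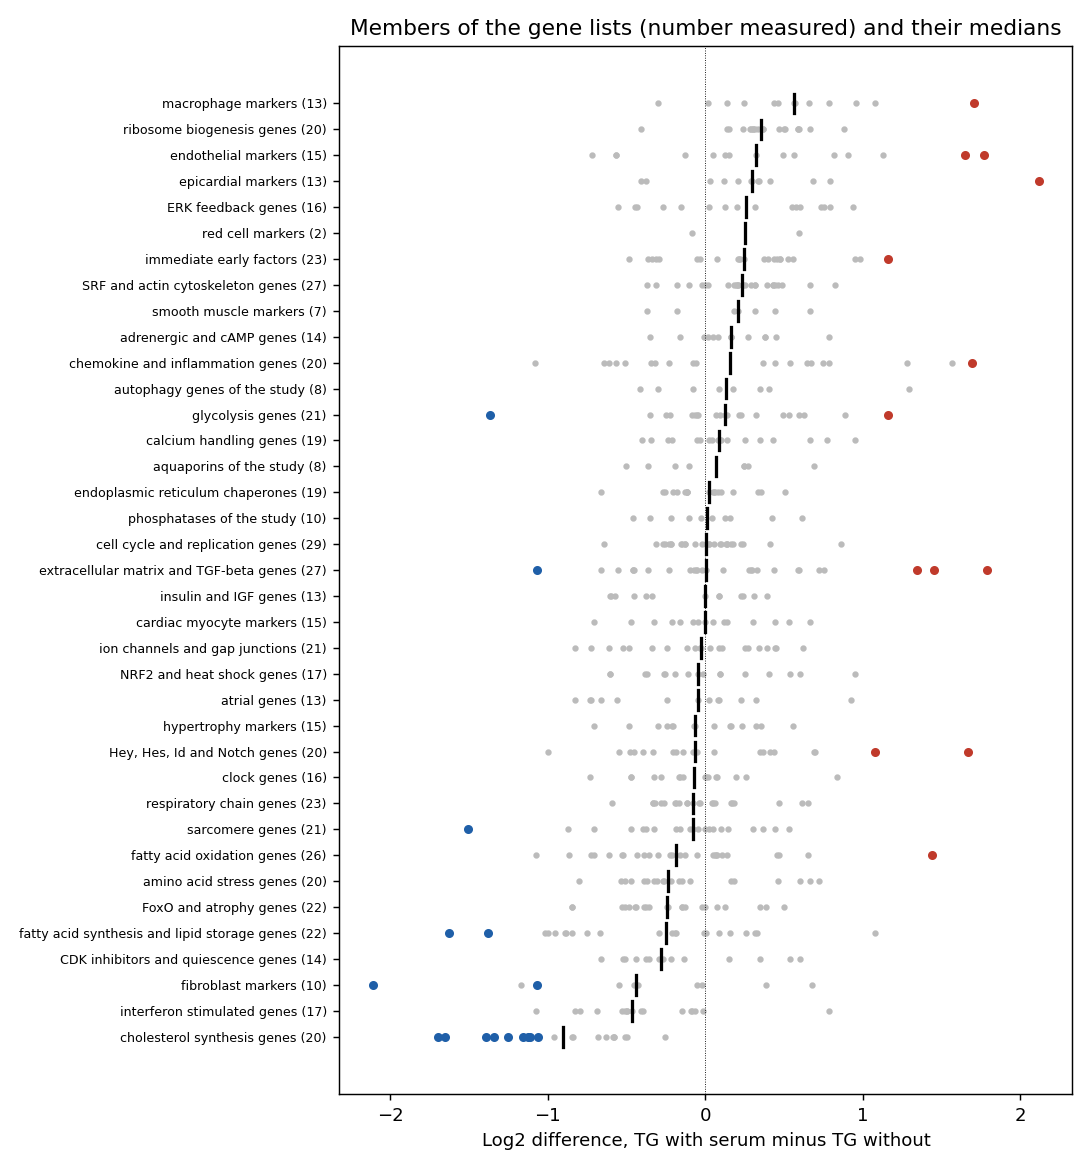
Log2 difference, TG with serum minus TG without, of the members (points) of each gene list, with the list's median as a black bar. Red points were called higher and blue points lower, and the cholesterol synthesis genes lie wholly below 0.

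Calls in lists of growth and proliferation genes are read against all genes, of which 0.436% rose and 0.401% fell. Of 23 immediate early factors 1 rose, Ier3, a survival factor induced by growth stimuli, at 1.16 (SE 0.09, adjusted p = 9.65e-11), from 7.80 to 8.37 without serum to 8.97 to 9.51 with it. The median of the list was 0.25, with Fos at -0.29, Egr1 at 0.48, Srf at 0.43 and Myc at 0.53. Of 16 ERK feedback genes 0 were called, with a median of 0.26, Dusp5 at 0.73 and Dusp6 at 0.57. Of 27 genes of SRF and the actin cytoskeleton 0 were called, with a median of 0.24, Cnn2 at 0.82 and Tagln at 0.67.

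Ribosome biogenesis genes had 0 calls at the brightest probe set of each gene, and their differences were mostly of 1 sign. The difference was positive in 19 of 20, with a median of 0.35, and 10 of the 20 did not overlap, where 18.2% of all genes did so in that direction. Rrs1, an assembly factor of the large subunit, had 0.88, the nucleolar proteins Npm1 and Ncl had 0.67 and 0.47, and Polr1b, a subunit of RNA polymerase I, had 0.59. Fbl, the nucleolar methyltransferase fibrillarin, had 0.24 at the brighter of its 2 probe sets. The other was called higher at 1.43 (adjusted p = 1.03e-12, 4.22 scaled MADs), so the probe sets disagree. Cell cycle and replication genes had a median of 0.0080 over 29 members and 0 calls. Cdc6, which licenses origins, had 0.86, Ccne1 0.41 and Mki67, the proliferation marker, -0.64. The median was -0.28 over 14 CDK inhibitors and quiescence genes and -0.24 over 22 FoxO and atrophy genes, 17 of them negative, with 0 calls in either list. Sesn3, a FoxO target, had -0.85 and Foxo4 -0.51.

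Interferon stimulated genes were negative in 16 of 17 members with a median of -0.46, and 0 were called. Oasl2 had -1.07 and Mx1 -0.79, and 7 of the 17 were dim. The lists of respiratory chain, insulin and IGF, amino acid stress, endoplasmic reticulum chaperone, NRF2 and heat shock, clock, ion channel, atrial and adrenergic genes had 0 calls each, with medians from -0.24 to 0.16. The aquaporins, phosphatases and autophagy genes that the study itself picked on these samples had 0 calls as well. The study picked them for TG against WT, not for serum in TG. With 8, 10 and 8 members measured and 0.838% of all genes called, 0 calls say little about them. Their medians were 0.07, 0.0095 and 0.14. Atg4c, a protease of the autophagy pathway, had 1.29 at 2.97 scaled MADs.

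Some of the largest values belong to genes with near-identical copies, and they are uncertain. Among the falls, Olfr598, an olfactory receptor gene, had -3.40, Eif4a3l1 -2.85, Defb8 -2.76 and Rps15a, a ribosomal protein gene, -2.0. Peg10, an imprinted gene derived from a retrotransposon, fell by 2.01 (SE 0.27). Crct1, an epidermal gene, had the largest rise of the named genes, 2.68 (SE 0.28), from 4.72 to 5.60 without serum to 6.90 to 8.73 with it. Sfn, an epithelial 14-3-3 protein, rose by 1.64 at the brighter of its 2 probe sets, and the other, at 1.02, was not called. Sprr1a, a cornified envelope gene known to be induced in stressed myocytes, rose by 1.08. The glutathione transferase Gstm1 fell by 1.16.

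The serum difference in WT myocytes was of like size for most named genes. In WT arrays 614 probe sets (1.73%) were called. By gene, 97 were higher (0.487%) and 76 lower (0.381%). Of the 167 genes called in TG myocytes 132 were called in WT in the same direction and 0 in the opposite one, 79.0% of the TG calls and 76.3% of the WT calls. The other 35 had the same sign in WT. TG and WT differences correlated across genes at r = 0.963, a description, since genes are not replicates and the difference in scale between arrays with and without serum was common to both genotypes. Fgf2 had 2.25 in TG and 2.20 in WT, Ptgs2 had 1.69 and 1.87, Dcn had -2.11 and -2.37, and Insig1 had -1.65 and -1.44.

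The test of TG minus WT called 0 of 35557 probe sets, and 1629 (4.58%) had an unadjusted p under 0.05. The smallest adjusted p was 0.0617, at a probe set that carries no gene name here. By limma, 2 of the 167 TG calls had an unadjusted p under 0.05. They were Hes1, with 1.08 in TG against 0.83 in WT (difference 0.25, 95% interval 0.06 to 0.44, adjusted p = 0.948), and Defb8. The named gene with the smallest p was Cecr2, a chromatin remodelling subunit, at -0.62 in TG and -1.02 in WT (difference 0.40, 95% interval 0.24 to 0.56, adjusted p = 0.248). It had 5.31, 5.4, 5.31, 5.22, 5.25 and 5.32 in TG without serum and 4.75, 4.53, 4.78, 4.65, 4.79, 4.59 and 4.69 with it, against 5.19 to 5.39 and 4.09 to 4.37 in WT. The WT arrays with serum thus lay below all TG arrays with serum. The other 9 of the 10 genes of smallest p were Snord57, AY036118, Ndufv3, Olfr767, Tmem269, Usp17ld, Slc6a12, 5730408K05Rik and Hpx, with adjusted p of 0.264 to 0.657. Olfr767 had opposite signs, -1.05 in TG and 0.51 in WT, with overlapping groups.

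**Figure D5:**
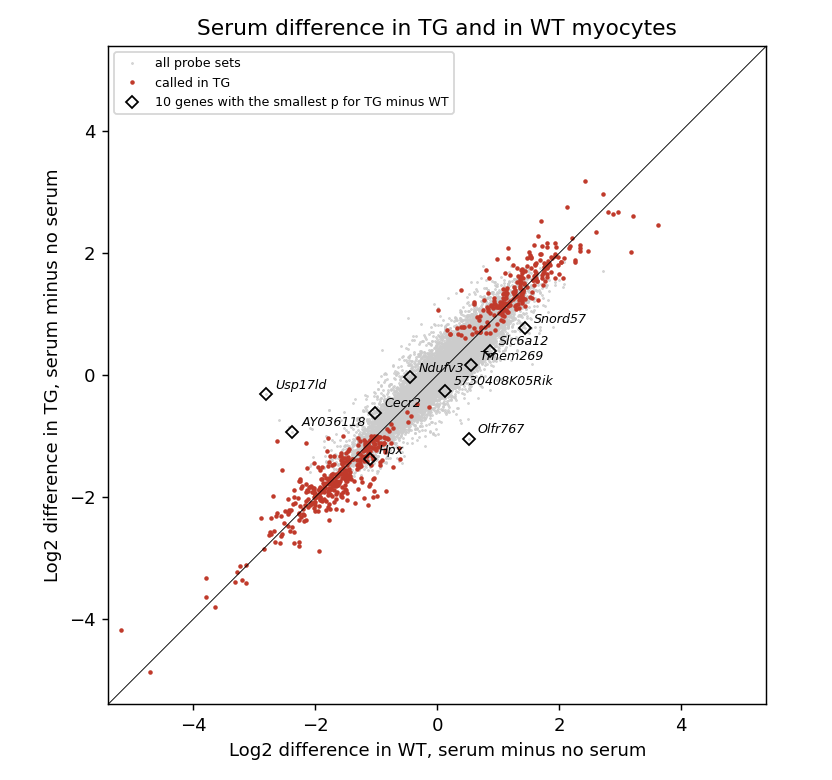
Log2 serum difference of each probe set in TG (vertical axis) and WT myocytes (horizontal axis), with the 10 genes of smallest p for TG minus WT as diamonds. Most points lie near the line of equal differences, and 0 probe sets passed the test of TG minus WT.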

How the data were processed

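RNA of cardiac myocytes was hybridised to Affymetrix Mouse Gene ST arrays. The authors deposited log2 intensities of 35557 probe sets, normalized by RMA in Affymetrix Expression Console 1.1 per the submitters' processing notes. The arrays with and without serum had different distributions, so they appear to have been normalized apart. Groups came from the labels of 25 arrays. No pair of arrays held identical values.

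All arrays were quantile-normalized together and fitted in limma 3.58.1 (R 4.3.3, statmod 1.5.0) with 1 mean per group, eBayes and Benjamini-Hochberg adjustment over all probe sets. The call rule is given with the results, and standard errors and 95% intervals are limma's. Genes were named by the platform annotation. It gave 21789 probe sets 1 gene, 1621 several and 12147 none, and the brightest single-gene probe set stood for a gene. The 37 lists held 669 entries, 636 of them measured. They and the members were chosen with earlier results of these data known. Genes named were Hey2, Myl2, Hey1, Heyl and 5 hypertrophy genes, the 10 largest standardized shifts each way among calls without overlap, up to 4 called members of each list or else the 2 of smallest p, and the 10 smallest p for TG minus WT. Genes added for their role were chosen after their values were seen. Scripts were tested on simulated data. Alternatives were other normalizations, ranks, thresholds, filters, weights and left-out arrays. The number of arrays limits the precision. Plots used Python 3.11.15 and matplotlib 3.10.9.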

Additional observations from a re-analysis of the deposited data

Results flagged for a closer look

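Among 148 named genes, 26 of 296 gene and group pairs had 1 TG culture far from the others of its group. The pairs share the same 13 TG cultures and are not independent, so their number is a description and not a test. Culture 6 with serum accounted for 12 of the 26. In culture 6 with serum, Ccn5 had 7.54 against 6.92 to 7.12 in the others, Fmod had 4.11 against 4.45 to 4.70 in the others and Hbegf had 10.72 against 11.14 to 11.43 in the others. In that culture, too, Hspa8 had 12.32 against 12.38 to 12.41 in the others, Idh1 had 9.18 against 8.4 to 8.71 in the others and Irs1 had 8.38 against 7.81 to 8.02 in the others. There, Kcnj5 had 7.04 against 7.40 to 7.64 in the others, Myh6 had 10.82 against 11.75 to 12.40 in the others and Tfpi2 had 9.17 against 7.52 to 8.22 in the others. There, Tgm2 had 10.58 against 11.41 to 11.88 in the others, Tnfsf18 had 9.02 against 7.54 to 8.16 in the others and Tnnt2 had 13.10 against 13.37 to 13.55 in the others. In culture 5 without serum, Bag3 had 9.26 against 9.53 to 9.68 in the others, Crct1 had 5.60 against 4.72 to 5.02 in the others and Hey1 had 5.33 against 4.84 to 4.99 in the others. In that culture, too, Itga6 had 8.11 against 8.54 to 8.72 in the others. In culture 1 without serum, 5730408K05Rik had 7.43 against 7.58 to 7.65 in the others and Kcnj3 had 5.51 against 5.25 to 5.35 in the others. In culture 7 with serum, Dusp28 had 6.87 against 6.65 to 6.75 in the others and Plvap had 5.43 against 5.95 to 6.24 in the others. In culture 2 without serum, Mx1 had 3.5 against 3.77 to 3.81 in the others. In culture 4 without serum, Hspa8 had 12.50 against 12.57 to 12.61 in the others. In culture 6 without serum, Cxcl1 had 6.99 against 6.71 to 6.80 in the others. In culture 1 with serum, Col3a1 had 8.52 against 8.85 to 9.05 in the others. In culture 3 with serum, Hpx had 4.48 against 4.72 to 4.90 in the others. In culture 5 with serum, Nfil3 had 7.25 against 7.47 to 7.62 in the others. All values are log2 intensities. No difference between TG and WT passed its test among the named genes.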

How the results depend on the processing

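Of 590 probe sets called in TG myocytes in the main setting, other settings gave close counts: ranks (645), deposited values (587), centred arrays (602), TG arrays alone (592), 1 genotype in the fit (589), a mean-variance trend (590), array weights (596) and a narrower running median (637). Leaving out 1 array gave 572 to 603 in TG, 592 to 623 in WT and 0 to 2 for TG minus WT. With probe sets of a mean under 5 left out, 325 were called in TG, 360 in WT and 2 for TG minus WT. With only probe sets named for 1 gene, 256 and 269 were called in TG and WT. A threshold of 2 scaled MADs gave 2648 and 2592, 4 scaled MADs gave 142 and 171, and a log2 difference of at least 1 gave 2040 and 2047. For TG minus WT, where 0 were called, deposited values gave 1, centred arrays 6 and array weights 2. Leaving out WT culture 2 without serum or WT culture 4 with serum gave 1, and leaving out TG culture 4 or WT culture 3 with serum gave 2. Culture numbers were not taken to pair the arrays. The study numbers the cultures without serum with gaps where the labels run on, so equal numbers in the labels need not mark the same preparation. Residual correlations of same-numbered TG arrays ran from -0.237 to 0.201, and with the number as a replicate block 591 probe sets were called in TG, 610 in WT and 0 for TG minus WT.

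Of 148 named genes, 146 kept direction and call with ranks, 144 with deposited values, 145 with centred arrays and 136 with the 3 TG cultures of lowest sarcomere transcripts left out, a setting that was added once the values were known. With 1 array left out, the shift of Nppb ran from -0.11 to 0.34. It turned to -0.02 without TG culture 4 without serum, to -0.11 without TG culture 5 without serum and to -0.26 without the 3 cultures, where that of Myh6 turned to -0.015. The cause was not tested. Of 37 gene lists, 36 had a median within the spread of the arrays with deposited values or centred arrays (the red cell markers moved to 0.15) and 29 with ranks, whose units are normal scores and not log2. With the 3 cultures left out, 37 did. Signal over background limits the dim probe sets. With those of a mean under 5 left out, 325 probe sets were called in TG in place of 590. By gene, 144 were called in place of 167.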
